A study of Mus musculus with 8 samples.

Results

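Fetal liver plasma protein genes were followed here in cultured mouse erythroid progenitors: Ahsg, Fetub, Apoa1, Apoa2, Afp, Alb and Ttr. Every array row that was no control spot and carried one of these 7 names was taken, which gave 8 probes on 26 spots, out of 39429 probes for 31660 genes. Apoa1 and Afp had 10 spots each, Apoa2 had 2 different probes, and the other genes had 1 spot. The cells were early erythroid progenitors of E14.5 fetal liver from C57BL/6 mice, depleted of lineage, Sca-1, CD16/32, CD41 and CD34 positive cells and then sorted as c-kit positive and among the lowest 10% for CD71. After infection with a virus they were grown for 3 days, and their total RNA, carrying the dye Cy3, was read on 1-colour arrays. Cells with the control virus were grown either without or with DEX, the glucocorticoid dexamethasone. Cells with shRNA1 or shRNA2, hairpins against an RNA-binding protein that the labels do not name, were all grown with DEX. Each of these 4 groups had 2 arrays. Infection and culture were thus shared by all 4 groups, and no hairpin was measured without DEX. Replicate 1 of each group lay on slide 1 and replicate 2 on slide 2. The labels do not say whether replicates were separate cultures or animals, so every p-value below measures only the spread between these arrays.

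The fetal liver is both the main site of red cell formation and the organ in which hepatocytes, the parenchymal cells, make most plasma proteins. Ahsg encodes fetuin-A, a glycoprotein that keeps calcium phosphate in solution, and Fetub encodes the related fetuin-B, an inhibitor of the protease ovastacin; both belong to the cystatin superfamily and are secreted mainly by hepatocytes. Apoa1 and Apoa2 encode the main proteins of high-density lipoprotein. Afp encodes alpha-fetoprotein, the albumin relative of fetal plasma, Alb encodes albumin, and Ttr encodes transthyretin, a carrier of thyroid hormone and of retinol-binding protein. Glucocorticoids act through the glucocorticoid receptor, a transcription factor, and slow the differentiation of early erythroid progenitors. In a bulk RNA sample, fewer cells of a type and less RNA per cell cannot be told apart.

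Across the 8 arrays, 59.5% to 62.9% of spots were well above background, which is the scanner software's own test of a spot against its surroundings. All 20 entries of the erythroid marker list on the array were well above background on all 8 arrays. The list holds Epb42 also under its older name Epb4.2. Values below are the log2 of the processed signal minus the 75th percentile of the array, so 0 is that percentile and a difference of 1 is a factor of 2. The 75th percentile was lower on slide 1 (476 to 1003) than on slide 2 (1439 to 2061). Zfp36l2, the target of the hairpins as known from the published study, was lower than in control cells with DEX by a log2 difference of -1.48 (SE 0.31) with shRNA1 and -1.58 (SE 0.31) with shRNA2.

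The 7 genes did not behave as one group. Ahsg and Fetub were well above background on all 6 arrays with DEX and on neither array without it, Apoa1 on 7 arrays, and Apoa2 and Afp on all 8. Alb and Ttr were not well above background on any of the 8 arrays. A probe was tested where some group had both of its arrays well above background, so 5 of the 7 genes were among the 19128 tested. Ahsg, Fetub and Apoa1 entered only through the groups with DEX, where they are high. A count over the tested genes therefore supports nothing about the 7.

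**Figure D1:**
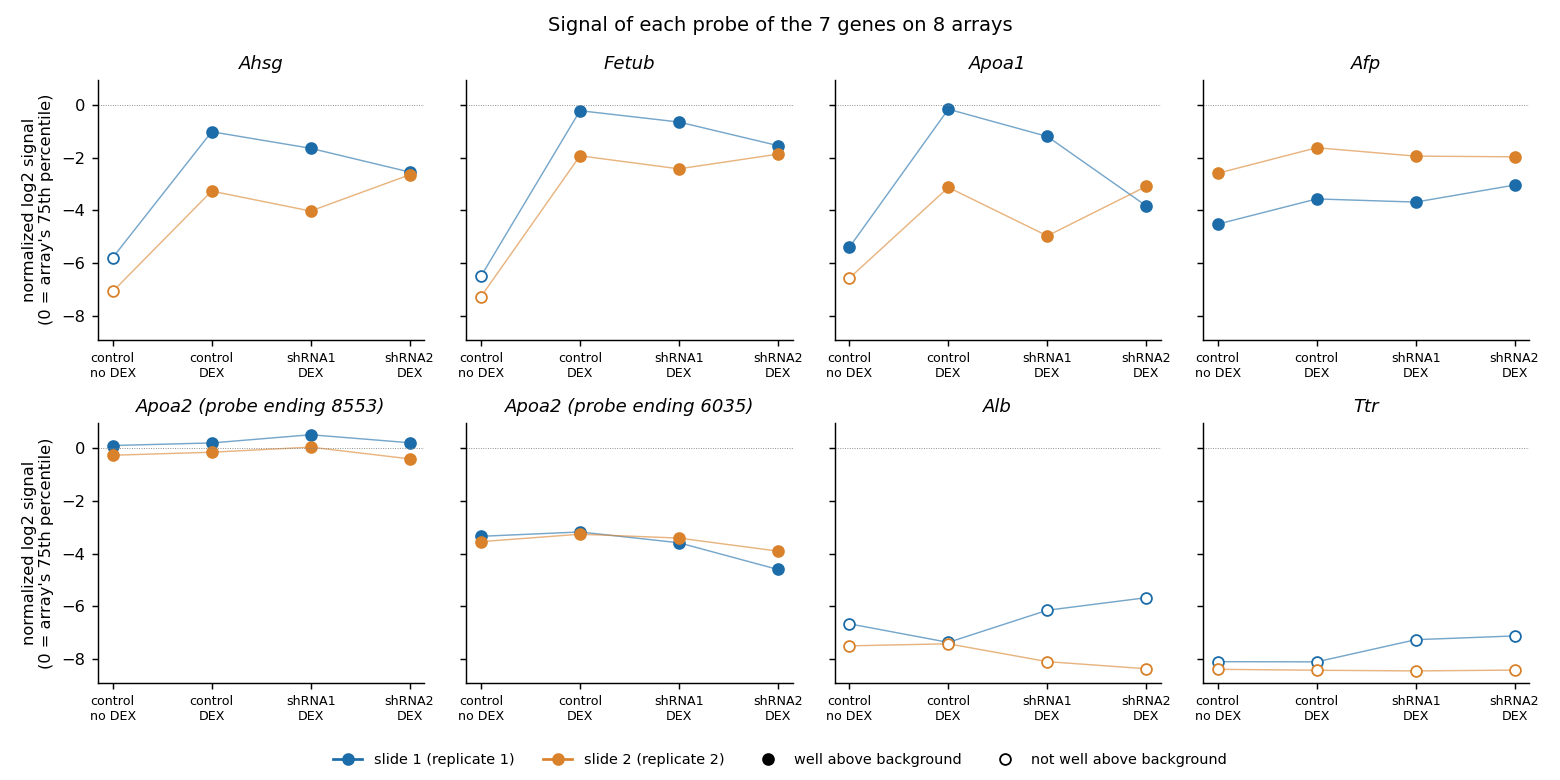
Normalized log2 signal of each probe of the 7 genes (vertical axis, 0 is the array's 75th percentile) in the 4 groups (horizontal axis), with slide 1 in blue and slide 2 in orange; a line joins arrays of the same slide, and open circles are arrays on which the probe was not well above background. Ahsg, Fetub and Apoa1 lie higher in every array with DEX than in both arrays without it, Afp lies higher on slide 2 in all 4 groups, and Alb and Ttr stay at open circles.

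Fetub had the largest measured difference with DEX among the 7. Its normalized level was -6.49 and -7.26 without DEX, -0.23 and -1.94 in control cells with DEX, -0.66 and -2.43 with shRNA1, and -1.55 and -1.87 with shRNA2, each pair given as slide 1 and slide 2. As processed signals before scaling, the same arrays read 11.2 and 12.5 without DEX, 825 and 539 with DEX, 302 and 267 with shRNA1, and 178 and 455 with shRNA2. The arrays with and without DEX did not overlap. Because neither array without DEX was well above background there, the difference is given as a bound under this scaling: Fetub was at least 36.8-fold higher in control cells with DEX. This bound sets the mean of the bright arrays against the lowest signal called well above background on each dim array, or the probe's own signal where that was higher. That lowest signal can come from any probe of the array, so it is not the detection limit of this probe. Such bounds rest on group means, leave out the spread between arrays and hold only for this signal and scaling. With normexp, another background correction, the measured difference of Fetub was 3.10, below its bound. The measured difference was 5.79 (SE 0.78) with a limma adjusted p of 0.1953 over all genes, and 0.02875 (SE 0.41) with the slide as a block. It was 6.26 on slide 1 and 5.33 on slide 2. The call under the block ended when any 1 of the 6 arrays of the control groups and shRNA1 was left out (adjusted p of 0.0676 to 0.371), while the measured difference stayed at 5.42 to 6.17.

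Ahsg, the neighbour of Fetub on chromosome 16, gave a similar profile. Its level was -5.79 and -7.07 without DEX, -1.02 and -3.27 in control cells with DEX, -1.65 and -4.03 with shRNA1, and -2.55 and -2.65 with shRNA2. It too was not well above background on either array without DEX, and the arrays with and without DEX did not overlap. By the same kind of bound, Ahsg was at least 16.2-fold higher in control cells with DEX. With normexp its measured difference was 2.05, below this bound. The measured difference of 4.28 (SE 1.03; 4.76 on slide 1 and 3.80 on slide 2) had a limma adjusted p of 0.7256, and 0.07214 with the slide as a block, so it did not pass.

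Apoa1 was the one of these 3 with a trace of signal in untreated cells. Its level was -5.40 and -6.56 without DEX, -0.17 and -3.13 in control cells with DEX, -1.20 and -4.96 with shRNA1, and -3.83 and -3.09 with shRNA2. On the arrays without DEX, 10 of its 10 spots on slide 1 and 1 of 10 on slide 2 were well above background. The 10 spots had an SD of 0.039 to 0.463 (log2) within an array, with a median of 0.0945, while the 2 slides of a group lay apart by 0.74 with shRNA2 and by -1.17, -2.96 and -3.76 in the others (slide 2 minus slide 1). The difference with DEX was 4.33 (SE 1.44; 5.22 on slide 1 and 3.43 on slide 2), with a limma adjusted p of 0.9999, and 0.2156 with the block. The arrays of the 2 control groups did not overlap.

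Fetub, Ahsg and Apoa1 were each at least 4-fold higher with DEX on both slides, which held for 0.465% of the 19128 genes tested by their measured values, and at least 2-fold held for 1.68%. With the bound in place of the measured value, Fetub was higher by at least 5.80 on slide 1 and 4.61 on slide 2 (log2), and Ahsg by at least 4.76 and 3.27. In the fit without a block no gene passed for DEX, where 594 had an unadjusted p below 0.05. The fit that takes the slide as a block passed 44 genes, 27 of them higher with DEX (0.141%), of which Fetub was 1, and 17 lower (0.0889%), none of the 7. At least 2-fold lower on both slides were 2.05% of all genes and at least 4-fold lower 0.329%, again none of the 7. An exact permutation test of 2 arrays against 2 cannot give a two-sided p below 0.333.

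**Figure D2:**
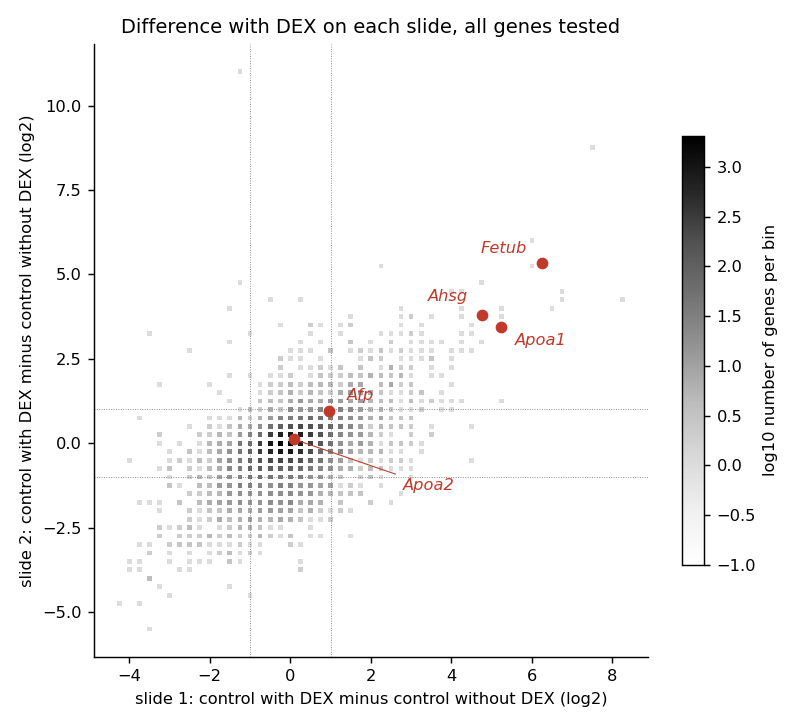
Difference between control cells with and without DEX on slide 1 (horizontal axis, log2) against the same difference on slide 2 (vertical axis, log2) for the 19128 genes tested; grey squares are bins shaded by the log10 number of genes, red points are the 5 tested plasma protein genes, and dotted lines mark a factor of 2. Fetub (6.26 and 5.33), Apoa1 (5.22 and 3.43) and Ahsg (4.76 and 3.80) lie at the upper right, Afp near 1 on both axes and Apoa2 near 0.

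The hairpin groups, which are separate samples with DEX, gave the same direction against control cells without DEX, although they share those 2 control arrays. By the same kind of bound, Ahsg was at least 10.0-fold higher with shRNA1 and at least 11.8-fold higher with shRNA2. Fetub was at least 26.8-fold and at least 23.8-fold higher. Apoa1 was higher by 2.90 (4.19 on slide 1 and 1.60 on slide 2) with shRNA1 and by 2.52 (1.57 and 3.47) with shRNA2. With the 6 arrays with DEX set against the 2 without, a comparison chosen after the data were seen, Fetub was at least 28.6-fold higher and Ahsg at least 12.4-fold. Here limma with the slide as a block gave an adjusted p of 0.01712 for Fetub and 0.0454 for Ahsg, against 0.1244 and 0.5101 without the block. In the blocked fit 85 genes (0.444%) passed as higher and 42 (0.22%) as lower. Both calls ended when any 1 of the 6 arrays of the control groups and shRNA1 was left out, with an adjusted p of 0.0506 to 0.134 for Fetub and 0.117 to 0.268 for Ahsg. The measured differences then stayed at 5.18 to 5.68 and 3.71 to 4.09. Apoa1 differed by 3.25 (SE 1.18) in this comparison and did not pass in either fit.

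The 250 bases before each listed transcription start are shown because Ahsg, Fetub and Apoa1 were higher with DEX on both slides while Alb stayed at background. They come from RefSeq (GRCm38.p6, plus strand, 5′ to 3′), which listed 2 starts for Fetub, and 6 of the 7 genes were looked up. Capitals mark AGAACA or its reverse complement TGTTCT, the half-site of the glucocorticoid receptor's DNA element.
Ahsg, chr16:22891765-22892014: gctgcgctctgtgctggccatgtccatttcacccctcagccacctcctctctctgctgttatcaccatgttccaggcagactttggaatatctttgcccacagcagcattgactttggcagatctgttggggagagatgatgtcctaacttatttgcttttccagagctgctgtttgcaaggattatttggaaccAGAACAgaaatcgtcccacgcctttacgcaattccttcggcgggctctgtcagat
Fetub, first start, chr16:22918132-22918381: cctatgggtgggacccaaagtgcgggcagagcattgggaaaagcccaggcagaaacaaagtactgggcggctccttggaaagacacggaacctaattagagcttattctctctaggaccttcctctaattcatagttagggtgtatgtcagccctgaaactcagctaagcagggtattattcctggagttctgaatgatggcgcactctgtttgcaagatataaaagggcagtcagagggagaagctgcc
Fetub, second start, chr16:22919972-22920221: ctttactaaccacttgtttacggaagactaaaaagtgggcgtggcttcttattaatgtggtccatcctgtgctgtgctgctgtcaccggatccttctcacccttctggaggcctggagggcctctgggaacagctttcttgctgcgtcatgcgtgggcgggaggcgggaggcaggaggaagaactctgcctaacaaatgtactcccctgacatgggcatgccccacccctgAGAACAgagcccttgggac
Apoa1, chr9:46228380-46228629: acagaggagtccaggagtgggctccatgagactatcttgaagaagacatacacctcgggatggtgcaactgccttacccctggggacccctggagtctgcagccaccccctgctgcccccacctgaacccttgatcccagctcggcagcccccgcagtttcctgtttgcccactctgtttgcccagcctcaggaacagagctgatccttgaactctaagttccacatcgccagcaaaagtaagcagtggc
Alb, chr5:90460620-90460869: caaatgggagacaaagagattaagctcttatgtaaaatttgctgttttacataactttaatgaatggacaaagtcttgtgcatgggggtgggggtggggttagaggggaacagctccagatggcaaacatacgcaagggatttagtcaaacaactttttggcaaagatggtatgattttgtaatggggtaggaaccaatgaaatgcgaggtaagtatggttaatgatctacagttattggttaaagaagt

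The half-site was matched once before Ahsg, with its first base 55 bases before the start, and once before the second Fetub start, 19 bases before it. It was absent as these letters from the windows of the first Fetub start, Apoa1, both Apoa2 starts and Alb, and present once before Afp, 190 bases before the start. Of 32851 windows of the same length 16.1% held it on either strand, so it is common. The full palindrome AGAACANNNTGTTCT was found in none of the windows of these 6 genes and in 0.00913% of all windows. TATAAA, the TATA box, lay 31 bases before the first Fetub start, 212 before the second Apoa2 start and 7 before that of Afp (12.4% of windows held it). AGATAA, bound by GATA factors, and CAAAGTCCA, a core of HNF4 sites, were in none of the windows of these genes (9.99% and 0.384% of all windows). A match is a description of letters and no measure of binding.

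The probes were placed by the files on mouse build mm9: Ahsg on chromosome 16 from 22899415 to 22899474, Fetub on chromosome 16 from 22939736 to 22939795, Apoa1 on chromosome 9 from 46037921 to 46037980, Afp on chromosome 5 from 90937781 to 90937840 and Alb on chromosome 5 from 90901598 to 90901657. The exon a probe lies in is not stated, since mm9 gene models were not used here. The probes of Apoa1, which was measured, and Alb, which was not, are shown as what the array detects.
Apoa1 probe: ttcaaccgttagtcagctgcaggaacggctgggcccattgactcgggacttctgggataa
Alb probe: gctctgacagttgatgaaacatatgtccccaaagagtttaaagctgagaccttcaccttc

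Afp lay higher on slide 2 than on slide 1 in every group. Its level was -4.52 and -2.60 without DEX, -3.57 and -1.63 in control cells with DEX, -3.69 and -1.95 with shRNA1, and -3.04 and -1.97 with shRNA2. The slides lay apart by 1.93 without DEX, 1.94 with DEX, 1.74 with shRNA1 and 1.07 with shRNA2. Ahsg and Fetub ran the other way, with slide 2 below slide 1 in all 4 groups, with differences of -0.10 to -2.37 for Ahsg and -0.32 to -1.77 for Fetub. With DEX, Afp was higher by 0.95 on slide 1 and 0.97 on slide 2. The difference of 0.96 (SE 1.00, adjusted p of 0.9999) had an SE of 0.28, a 95% interval of 0.27 to 1.65 and an adjusted p of 0.2962 in limma with the slide as a block, and the 2 control groups overlapped.

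Apoa2 was read by 2 probes that did not give the same profile. The brighter probe (chromosome 1, 173156445 to 173156504) read 0.09 and -0.28 without DEX, 0.19 and -0.16 in control cells with DEX, 0.50 and 0.03 with shRNA1, and 0.19 and -0.42 with shRNA2. Its difference with DEX was 0.11 (SE 0.37, 95% interval -0.79 to 1.00), and the groups overlapped. The other probe (173156320 to 173156379) read -3.35 and -3.55 without DEX, -3.18 and -3.27 with DEX, -3.59 and -3.41 with shRNA1, and -4.60 and -3.91 with shRNA2. Its difference with DEX was 0.22 (SE 0.33, 95% interval -0.59 to 1.04). Both intervals leave out the differences measured for Apoa1, the other main lipoprotein gene of the 7. The 95% interval of Apoa1 itself was 0.83 to 7.83 in the same fit, which overlaps both. With the slide as a block it was 1.69 to 6.97, against -0.36 to 0.57 for the brighter Apoa2 probe and -0.45 to 0.90 for the other. The difference between the genes was not tested.

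Alb, the standard marker of hepatocytes, and Ttr were not well above background on any array. The processed signal of Alb was 9.92 and 10.7 without DEX, 5.88 and 12.1 in control cells with DEX, 6.73 and 5.28 with shRNA1, and 10.3 and 5.07 with shRNA2. That of Ttr lay between 3.11 and 6.04 on the 8 arrays, and on 7 of them the software had replaced it with its surrogate for spots at background. Neither gene can be given a fold.

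Over the 8 arrays the profiles of Ahsg and Fetub had a Pearson correlation of 0.975, those of Ahsg and Apoa1 of 0.934, and those of Fetub and Apoa1 of 0.866. Afp had -0.0024 with Ahsg, 0.18 with Fetub and -0.16 with Apoa1. These points share slides and groups, so the values are descriptions. They include the 2 arrays without DEX, where Ahsg and Fetub, and on 1 of them Apoa1, were not well above background. Among all genes tested, Fetub ranked 4 and Apoa1 55 in likeness to Ahsg, and Apoa1 ranked 183 in likeness to Fetub. The genes with the profiles most like Fetub were Adamts14 (0.986), a procollagen-processing protease, Arhgef3 (0.98) and Mt2 (0.976), a metallothionein. For Ahsg they were Pde10a (0.986), a phosphodiesterase, Klf13 (0.983), a transcription factor, and Bmp1 (0.977), also a procollagen-processing protease. Apoa1 had Tnfaip8l1 (0.977), Rnf128 (0.964) and Pcnx4 (0.962), Afp had Capza1 (0.975), Hmgcs1 (0.973) and Hdac8 (0.966), and Apoa2 had Ccdc144b (0.984), Trav7n-5 (0.984) and Ctsm (0.982).

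Other tested genes of hepatocytes gave smaller differences with DEX than Ahsg, Fetub and Apoa1. Of 48 other liver plasma protein genes on the array, 18 to 24 were well above background on a given array and 21 on none. The counts were 20 to 24 without DEX, 20 and 20 in control cells with DEX, 21 and 21 with shRNA1, and 18 to 22 with shRNA2. Those at background on all 8 arrays include the fibrinogen chains Fgb and Fgg, plasminogen (Plg), hemopexin (Hpx), Serpina3k and Ambp. Those well above background on all 8 include Serpinc1, F9, Gc, Itih1, Hp and C3. Of the 20 that were tested, none was 2-fold different with DEX on both slides, and their median difference was 0.00 against -0.08 over all genes tested. Serpina1a, an antitrypsin, differed by -0.33 (SE 0.70) and Trf, transferrin, by -0.42 (SE 0.89). The summed linear level of this list was 225 to 437 without DEX and 213 to 464 in control cells with DEX, and nearly all of it was the coagulation factor gene F10. Without F10 it was 2.67 to 7.42 and 3.96 to 4.35, 9.94 to 10.95 with shRNA1 and 6.60 to 39.1 with shRNA2.

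Among 34 intracellular and surface markers of hepatocytes and hepatoblasts, 14 to 18 were well above background on an array and 11 on none. Those on none include Epcam, Cdh1, Tdo2 and Fabp1. Others, including Dlk1, Asgr1, Asgr2, Tat and Fah, were well above background on all 8 arrays. Of 14 tested, none was 2-fold different with DEX on both slides (median -0.17). Krt18, a keratin, differed by 0.21 (SE 0.89). The summed level without its brightest gene, Slc10a1, was 1.098 to 1.54 without DEX, 0.94 to 1.24 in control cells with DEX, 1.01 to 2.31 with shRNA1 and 0.97 to 2.16 with shRNA2. Slc10a1 made up nearly all of the rest, and whether the F10 and Slc10a1 probes read only those genes was not tested.

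Of 17 hepatocyte transcription factors, 6 were at background on all arrays, including Foxa2, Foxa3 and Onecut1. Of the 8 tested, 7 had a higher value with DEX, and their median of 0.37 lay above that of all genes (-0.08) and was 0.11 to 0.46 under the 4 other scalings and sources. None of the 8 passed in this comparison of the 2 control groups. Hnf4a was well above background on all 8 arrays and differed with DEX by 0.73 (SE 0.53; 0.66 and 0.80 on the slides). Creb3l3, a liver-enriched factor that activates apolipoprotein genes, was the 1 of 8 tested that was 2-fold higher on both slides (1.86 and 1.80). Its difference of 1.83 (SE 0.81) had an adjusted p of 0.0867 in limma with the slide as a block. Cebpa was the 1 of 8 with a lower value, by -1.26 (SE 0.68), with -0.92 on slide 1 and -1.60 on slide 2. With all 6 arrays with DEX set against the 2 without, 1 of the 8 factors passed as higher with the slide as a block. Of all genes tested 0.444% did. Of the factors 6 were higher and 2 lower (median 0.59, against -0.02 over all genes). Of the other liver plasma protein genes 16 were higher and 4 lower (median 0.28), and of the hepatocyte markers 11 and 3 (median 0.13). No gene of those lists passed. The part of hepatocytes among the cells in the levels of Ahsg, Fetub and Apoa1 was not tested.

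Neighbours of these genes on their chromosomes gave different values. Hrg, which follows Fetub and encodes another cystatin superfamily plasma protein, was well above background on all 8 arrays and differed with DEX by -0.18 (SE 0.49). Of 8 cystatin superfamily relatives tested, none was 2-fold different on both slides (median 0.02). Apoc3, the neighbour of Apoa1, differed by -0.50 (SE 0.29). Apoa4, next to Apoc3, was well above background on the 2 arrays of control cells with DEX and on no other array, at least 1.35-fold higher than without DEX (measured differences of 1.54 on slide 1 and 2.85 on slide 2). Afm, the next albumin family gene after Afp, was at background on all 8 arrays. Of 8 other apolipoprotein genes tested, Apoc1 was 2-fold lower on both slides (-2.07, SE 1.18), and Apoa4 alone had measured values over 2-fold higher on both, although its bound is below 2-fold. Apob was well above background on 1 of 8 arrays.

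Targets of the glucocorticoid receptor are the class of genes that DEX is known to induce. Of 20 tested, 16 had a higher and 4 a lower value with DEX (median 0.66, against -0.08 over all genes). At least 2-fold higher on both slides were 5 of them, as were 1.68% of all genes tested. They were Mt2 (4.28, SE 0.47), Fkbp5, a co-chaperone of the receptor (2.18, SE 0.54), Cdkn1c, a cell cycle inhibitor (2.16, SE 0.53), Hif3a (1.52, SE 0.34) and Per1, a clock gene (1.26, SE 0.43). Of these Mt2 passed in limma with the slide as a block, with an adjusted p of 0.0413. The 4 with a lower value were Angptl4 (-0.89, SE 1.08), G6pc (-0.18, SE 0.94), Tat (-0.17, SE 0.74) and Errfi1 (-0.08, SE 0.80). Igfbp1 and Pdk4 of this list were at background on all 8 arrays. Markers of other cells also had medians away from that of all genes. The 10 tested monocyte and macrophage markers had a median of -1.18 and the 20 erythroid markers -0.46, both below 0 under all 5 scalings and sources tried. At least 2-fold lower on both slides were the macrophage gene Adgre1 (-1.86, SE 1.25) and 5 erythroid genes, among them the red cell membrane genes Slc4a1 (-2.04, SE 1.24) and Epb42 (-1.54, SE 0.57) and the haem enzyme gene Alas2 (-1.62, SE 1.52). The probe listed under the older name Epb4.2 differed by -0.99 (SE 0.43), with -1.06 on slide 1 and -0.92 on slide 2, so it did not meet that rule. The progenitor receptor gene Kit was 2-fold higher on both (1.72, SE 0.31). The 7 stromal, stellate and endothelial markers had a median of -0.15, and 1 of them passed with the block: Pdgfrb, a receptor of stromal and stellate cells, was higher by 2.02 (SE 0.36; 2.02 on slide 1 and 2.01 on slide 2), with an adjusted p of 0.0438. Their part in the values of the plasma protein genes was not tested.

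**Figure D3:**
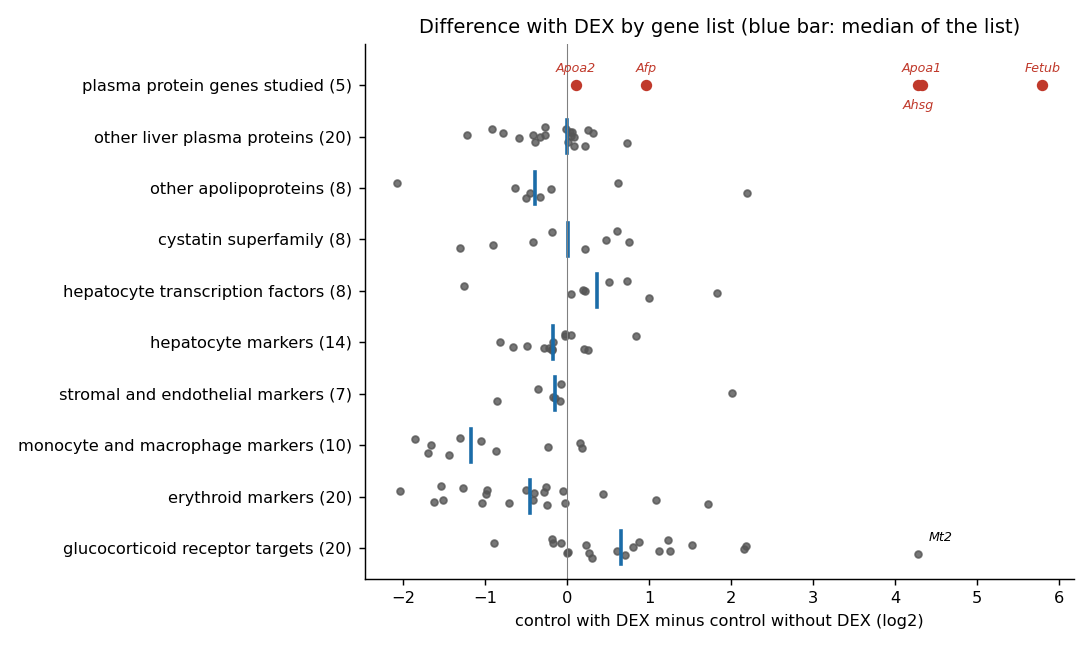
Difference between control cells with and without DEX (horizontal axis, log2) for the 5 tested plasma protein genes in red and for the tested genes of 9 lists in grey, 1 point a gene, with the number of genes in parentheses. Epb42 has a further point among the erythroid markers, under its older name Epb4.2. Blue bars are list medians and vertical scatter within a row carries no value. Fetub, Apoa1 and Ahsg lie beyond every gene of the lists of other liver plasma proteins and hepatocyte markers, also by their bounds of 36.8-fold and 16.2-fold for Fetub and Ahsg; both are drawn at their measured differences, which rest on background without DEX.

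The hairpins against the RNA-binding protein left Ahsg, Fetub and Apoa1 well above background, and none of the 5 tested genes passed against control cells with DEX in either fit. No gene of all 19128 passed without a block, where 400 with shRNA1 and 240 with shRNA2 had an unadjusted p below 0.05; with the block 0 and 1 (0.00523%) passed. Fetub differed by -0.46 (95% interval -2.36 to 1.44) with shRNA1, -0.43 and -0.49 on the slides, and by -0.63 (-2.53 to 1.27) with shRNA2, -1.32 and 0.06 on the slides. Ahsg differed by -0.69 (-3.20 to 1.82) with shRNA1, -0.63 and -0.75 on the slides, and by -0.45 (-2.96 to 2.05) with shRNA2, -1.52 and 0.62 on the slides. These intervals come from the fit without a block. With the slide as a block Fetub's were -1.49 to 0.56 and -1.65 to 0.40, and Ahsg's were -2.13 to 0.75 and -1.89 to 0.98. All 4 blocked intervals hold 0 and a value 2-fold lower, and none reaches 2-fold higher.

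Apoa1 had the widest spread. With shRNA1 it differed by -1.43 (95% interval -4.93 to 2.06), -1.03 on slide 1 and -1.83 on slide 2. It was the 1 tested gene of the 7 at least 2-fold lower on both slides, as were 0.612% of all genes tested; none was 2-fold higher, as 3.03% were. With shRNA2 none of the 5 was 2-fold lower or higher on both slides, as 0.261% and 0.758% of all genes were. With shRNA2 the difference of -1.81 (-5.31 to 1.69) came from slide 1 alone, at -3.66, against 0.04 on slide 2. The blocked intervals were -4.08 to 1.21 and -4.45 to 0.83. On that array of slide 1 the summed level of the monocyte and macrophage markers was 73.7, against 7.80 to 23.4 in control cells with DEX, and it was 62.1 with shRNA1 on the same slide. Most of these sums was Itgam, and without it they were 22.7, 2.20 to 3.50 and 10.4. The part of these cells in the Apoa1 value was not tested. The 2 hairpins differed for Apoa1 by -2.63 on slide 1 and 1.87 on slide 2, a mean of -0.38 (-3.87 to 3.12).

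Afp differed by -0.22 (95% interval -2.66 to 2.22) with shRNA1 and 0.09 (-2.35 to 2.53) with shRNA2, with blocked intervals of -0.91 to 0.47 and -0.60 to 0.78, and its sign changed with the scaling. For Apoa2 the brighter probe differed by 0.25 (-0.65 to 1.15) and -0.12 (-1.02 to 0.78). The other Apoa2 probe differed with shRNA2 by -1.03 (-1.84 to -0.22), -1.42 on slide 1 and -0.64 on slide 2, with no overlap between the groups and a limma adjusted p of 1 over all probes. The other liver plasma protein genes had a median of 0.74 with shRNA1 and 0.52 with shRNA2, against 0.18 and 0.01 over all genes tested, and 0.34 and 0.28 with median scaling and 0.19 and 0.12 in the authors' deposited table. None of them passed. The hepatocyte and hepatoblast markers had medians of 0.65 with shRNA1 and 0.33 with shRNA2, with 12 and 14 of the 14 tested higher. With median scaling these medians were 0.25 and 0.08, with 10 of 14 higher for each hairpin. No gene of these markers passed. In the same comparisons the monocyte and macrophage markers had medians of 1.15 and 1.57, and the erythroid markers of 0.53 and 0.00. Their part in the values of the liver genes was not tested.

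**Figure D4:**
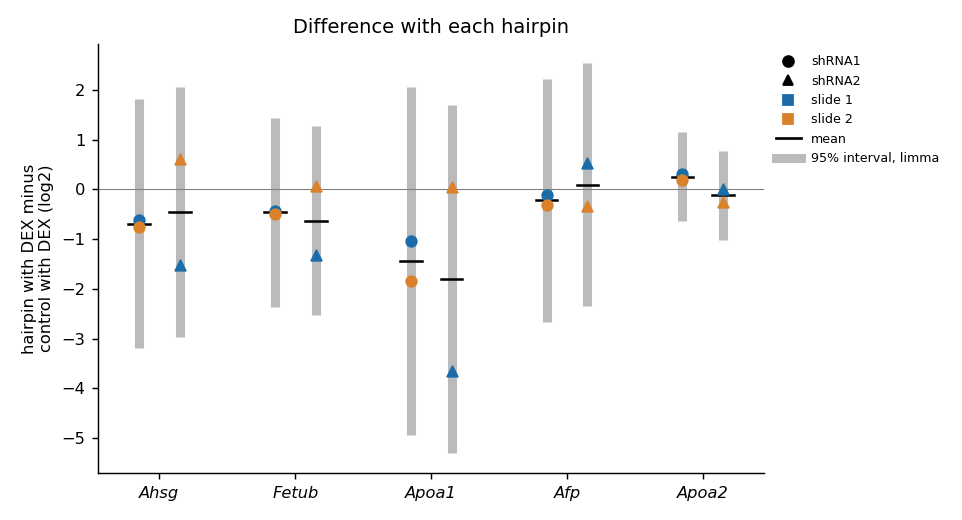
Difference between each hairpin group and control cells with DEX (vertical axis, log2) for the 5 tested genes (horizontal axis); circles are shRNA1, triangles shRNA2, blue slide 1 and orange slide 2, black bars the mean and grey bars the 95% interval of limma without a block. All 10 intervals include 0, and the slides lie farthest apart for Apoa1 with shRNA2 (-3.66 and 0.04).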

How the data were processed

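Agilent Feature Extraction 10.1.1.1 made the deposited intensity values (linear processed signal per spot), per the file headers; the submitters' processing notes also name limma. The authors' deposited log2 table follows each array's median signal (Spearman correlation of 1); its scaling is not given in the sources used here, so it is an alternative only.

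Of 44397 spots, 1377 controls and all outlier spots were left out, and spots of a probe were averaged. A gene was represented by its tested probe with the highest mean. All 8 arrays entered 1 limma 3.58.1 fit (R 4.3.3) of 4 groups, called at a Benjamini-Hochberg adjusted p below 0.05. Same-slide arrays deviated together (correlations of 0.431 to 0.859 over 6 pairs of groups), so the fit with slide, equal to replicate number, as a block stands beside it. The fit without a block was tested on simulated data, with independent noise smaller than the measured spread and no shared slide deviation. That simulation therefore does not bear on the blocked fit or on arrays that deviate together. Alternatives were other scalings, normexp, no filter, outlier spots kept, mean of probes and each array left out. The number of arrays limits the precision.

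The 7 genes, the 3 most like each, and list genes 2-fold different on both slides were named by rule, some of them not reported here; other names were picked after their values were seen. Members and lists were chosen with earlier results of these data known.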

Additional observations from a re-analysis of the deposited data

How the results depend on the processing

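With DEX, Fetub, Ahsg and Apoa1 were higher in all 34 settings each (3.10 to 6.65, 2.05 to 5.40 and 2.46 to 5.81), lowest with normexp. The calls were less stable. Of the 7 genes, 0 passed for DEX without and 1 with the replicate block. Under the block it was 2 with median scaling, 0 with the authors' table, 0 without the filter on dim probes, and 0 to 2 with 1 array left out (2 without either shRNA2 array, 0 without any other). For all 6 arrays with DEX, 0 passed without and 2 with the replicate block; that 2 became 1 with quantile scaling, normexp, the authors' table, outlier spots kept or the mean of probes, 0 without the filter, and 0 to 2 with 1 array left out. Over all genes the block moved the DEX count from 0 to 44. Apoa1, the 1 gene 2-fold lower on both slides with shRNA1, left 0 with normexp. The cause of these changes was not tested.

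Small differences changed sign, also in the fit with the block. With shRNA1, Apoa2 was -0.15 with median scaling and -0.013 with the mean of probes, and Afp 0.0726 with normexp. With shRNA2, Afp was -0.16 with median scaling, -0.11 with quantile scaling and -0.12 with the authors' table. For all DEX groups, Apoa2 was -0.032 with the mean of probes. The median over all genes with shRNA1 went from 0.18 to -0.22 with median and -0.01 with quantile scaling.

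With 1 array left out and no block, DEX gave -0.078 to 0.29 for Apoa2 and -0.0077 to 1.93 for Afp, and all DEX groups -0.035 to 0.33 and -0.044 to 1.88. With shRNA1, Ahsg ran from -1.88 to 0.50, Fetub from -1.35 to 0.42, Apoa1 from -3.31 to 0.45 and Afp from -1.19 to 0.75. With shRNA2, Ahsg ran from -1.58 to 0.67, Fetub from -1.48 to 0.23, Apoa2 from -0.43 to 0.18 and Afp from -0.88 to 1.06. Between hairpins, Ahsg ran from -0.95 to 1.42, Fetub from -1.05 to 0.72, Apoa1 from -2.26 to 1.504 and Afp from -0.56 to 1.18. Under the block, sign changes were 0.043 and 0.48 for Ahsg and -0.089 and -0.31 for Afp with shRNA2. Between hairpins they were -0.34 and -0.69 for Ahsg, 0.25 and 0.38 for Fetub, 0.94 and 1.31 for Apoa1, and -0.089 for Afp.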
